A study of Homo sapiens with 6 samples.

Results

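Long intergenic noncoding RNAs (lincRNAs) are transcripts with no annotated protein product whose genes lie apart from protein-coding genes. The lincRNAs described here were chosen by their measured counts: every gene typed lincRNA in the count table with a mean of at least 100 raw counts over the 6 libraries was taken, except genes named SNHG, GAS5 and LINC01173. The rule took 95 of the 3661 lincRNA genes in a table of 34036 genes, and 3 others at that mean (SNHG19, SNHG8 and LINC01173) were left out by name. The cells were HepG2, an established human line from a liver tumour with hepatocyte features. In 3 libraries the cells had received a non-targeting siRNA (siControl) and in 3 a pool of siRNAs against DGUOK (siDGUOK), which encodes the mitochondrial kinase that phosphorylates deoxyguanosine, and RNA was collected 48 h after transfection. By their titles the libraries differed only in the siRNA, and no other agent was named. Library totals ran from 10527216 counts in siControl replicate 3 to 21334876 in siDGUOK replicate 3.

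The labels were checked against the data. DGUOK was at 54.7, 53.5 and 48.5 CPM (counts scaled to a common library size) in siControl replicates 1, 2 and 3 and at 9.12, 10.48 and 6.69 CPM in siDGUOK replicates 1, 2 and 3. The log2 fold change was -2.58 (SE 0.19), and the groups did not overlap. Hepatocyte markers were abundant in every library, with ALB at 18877, 14386 and 15355 CPM in siControl and 6360, 5571 and 4262 CPM in siDGUOK. Of 9 hepatocyte markers, 8 were called lower in siDGUOK and SERPINA1 was not called, beside 6.9% of all genes tested called lower. HNF4A, at a log2 fold change of -0.52, fell short of the 0.5 threshold without siControl replicate 1 or siDGUOK replicate 3 and with TMM factors computed before the filter, all with adjusted p under 0.05. The summed level of the list was 53117, 47494 and 46365 CPM against 27560, 23822 and 22409 CPM. In bulk RNA, fewer cells of a type and less RNA per cell cannot be told apart, and the part of this marker change in the lincRNA results was not tested. Of 10 tested markers of other cell types, COL1A1 was called higher and EPCAM lower, and LYZ was the most abundant. Over all genes tested 7.14% were called higher and 6.9% lower. COL1A1 had 9, 37 and 11 raw counts in siControl and 374, 336 and 379 in siDGUOK, a log2 fold change of 4.03. The median log2 fold change of the 10 was 1.42, with 7 above 0, and their summed level was 1991, 2096 and 2100 CPM in siControl and 2182, 2030 and 1975 CPM in siDGUOK. Several of the markers not called were high in siDGUOK replicate 2: VWF had 8, 26 and 0 raw counts in siControl and 26, 510 and 0 in siDGUOK, PECAM1 23, 0 and 5 against 10, 258 and 61, and PTPRC 9, 55 and 2 against 37, 129 and 58. COL1A2 had 14, 0 and 0 in siControl and 124, 169 and 0 in siDGUOK. With the replicate number as a block, VWF, COL1A2 and PTPRC were called higher (adjusted p = 0.00143, 0.00583 and 0.0465 by edgeR). PTPRC was also called without siControl replicate 2 (adjusted p = 0.0143), COL1A2 without siDGUOK replicate 3 (0.000693), and PECAM1 without siDGUOK replicate 1 (0.0116) and with no count filter (6.47e-05), all by edgeR. The part of these markers in the lincRNA results was not tested. CD3E and CD14 had means of 18.8 and 20.3 raw counts, close to the detection limit.

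lincRNAs act in several ways. Some hold protein assemblies together in the nucleus, some bind proteins in the cytoplasm, some carry a microRNA in their transcript, and for others only transcription across the locus is known to matter. NEAT1 is the scaffold of the paraspeckle, and MALAT1 gathers in nuclear speckles beside splicing factors. NORAD binds the Pumilio proteins, which shorten the life of target mRNAs. In liver tumour cells such RNAs are studied mainly for their links to growth and stress.

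Of the 95 lincRNAs, all of which passed the filter on low counts, 28 were called higher in siDGUOK and 2 lower by edgeR's quasi-likelihood test with Benjamini-Hochberg adjustment (adjusted p under 0.05 and a log2 fold change beyond 0.5 in size). Over all 14476 genes tested, 7.14% were called higher and 6.9% lower. The groups did not overlap with siDGUOK above in 36 lincRNAs and with siDGUOK below in 8, against 18.1% and 17.7% of all genes tested. The median log2 fold change of the 95 was 0.29, beside 0.01 over all genes tested, and 71 were above 0. Among protein-coding genes with the same minimum mean, 840 of 10023 were called higher and 901 lower, with a median of -0.01. Other noncoding classes at that minimum also had medians above 0: 0.25 for 91 antisense genes (18 called higher, 5 lower), 0.11 for 34 processed transcripts (6 and 0) and 0.25 for 57 processed pseudogenes (1 and 3). The difference between lincRNAs and these classes was not tested. Among 394 other lincRNA genes tested, 16 (4.06%) were called higher and 2 (0.508%) lower, with a median of 0.24. The shares among the 95 were 29.5% and 2.11%, and the difference between these 2 sets of lincRNAs was not tested either.

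**Figure D1:**
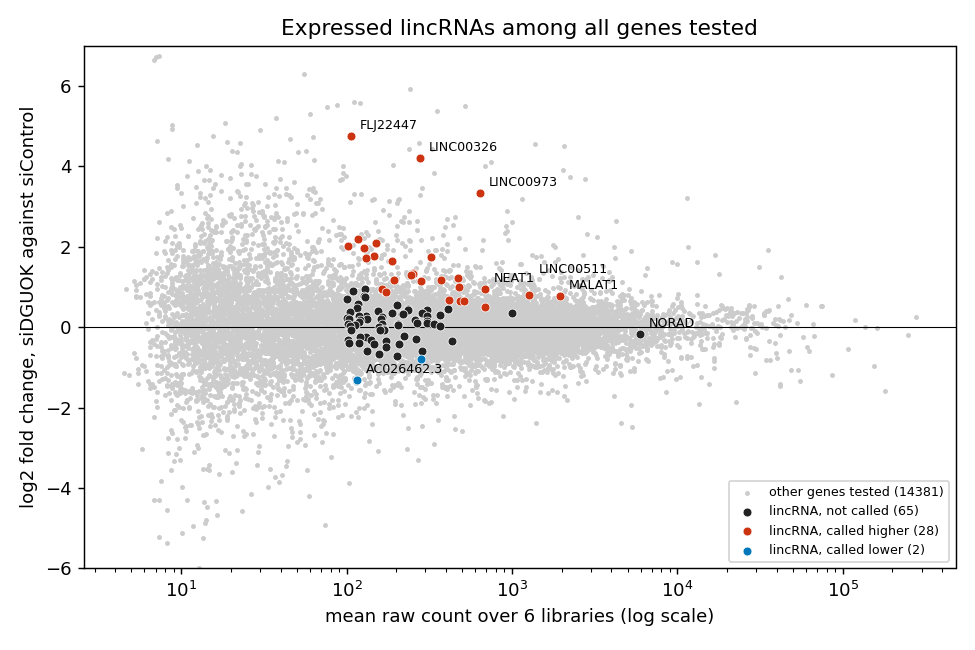
Each point is a gene, with its mean raw count over 6 libraries on a log scale and its log2 fold change in siDGUOK against siControl. The 28 lincRNAs called higher lie above 0.5 at means from about the minimum of 100 upward, and 49 other genes lie outside the drawn range.

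The minimum mean lets in genes through the group where they are high. In siControl, 24 members had a group mean under 100 raw counts, and 10 of these were called higher. These include 9 of the 15 largest rises: FLJ22447 (siControl mean of 6.67 raw counts), LINC00326 (23.3), AC108865.1 (33.3), BLACAT1 (37.3), LINC00239 (46.3), AL033397.1 (50.7), LINC02313 (56.7), AL139246.5 (57) and LINC00704 (83). They met the minimum only through siDGUOK, where they are high, so their place in the order of fold changes is a description. In siDGUOK, 3 members had a mean under 100, and 1 of these, AC026462.3 (siDGUOK mean of 76.3 raw counts), was called lower. It met the minimum only through siControl, where it is high. Of the 68 lincRNAs with a mean of at least 100 in each group, 18 were called higher and 1 lower, with a median log2 fold change of 0.21. Just outside the threshold were SCAMP1-AS1 (97.7 mean raw counts), AJ009632.2 (96.7), AC012065.3 (96.3) and LINC00294 (93.2), and just inside were AL033504.1 (100.3), LINC02542 (101.2), AC022816.1 (101.8) and LINC00528 (102.3).

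**Figure D2:**
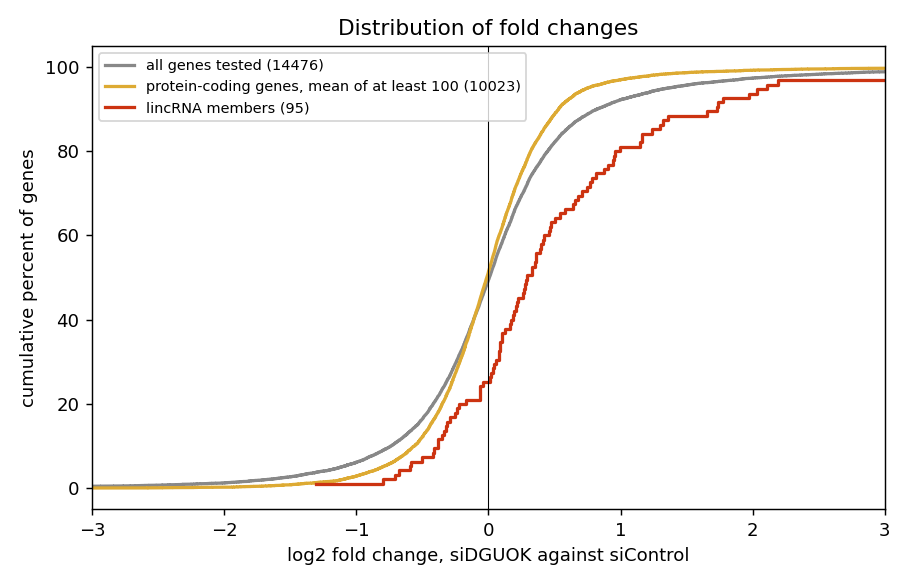
Cumulative percent of genes by log2 fold change for 95 lincRNAs, 10023 protein-coding genes with a mean of at least 100 raw counts, and all 14476 genes tested. The lincRNA curve lies to the right, with a median of 0.29 beside -0.01 and 0.01.

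Summed counts are given by library as a description. The 95 lincRNAs together held 0.143%, 0.149% and 0.15% of the counts in siControl replicates 1, 2 and 3 and 0.188%, 0.206% and 0.202% in siDGUOK replicates 1, 2 and 3. Without NORAD, the most abundant member, these shares were 0.107%, 0.115% and 0.113% against 0.156%, 0.173% and 0.168%. These sums include the 24 lincRNAs with a siControl mean under 100, which as a set raise the siDGUOK shares by the way they were chosen. The cutoff is on raw counts, so library depth also moves a group mean. Some of the 24 lay just under 100 with little change, such as PVT1 (98.3, log2 fold change 0.04) and AC008915.2 (97.7, -0.06). The 68 with a mean of at least 100 in each group held 0.131%, 0.135% and 0.138% in siControl and 0.162%, 0.178% and 0.178% in siDGUOK, and every siDGUOK library was above every siControl library.

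Both lincRNAs on the list for nuclear bodies, MALAT1 and NEAT1, were called higher. MALAT1 was at 84.1, 85.1 and 73.7 CPM in siControl and 109, 176 and 133 CPM in siDGUOK. Its log2 fold change was 0.78 (SE 0.14, adjusted p = 0.000387 by edgeR's quasi-likelihood test with Benjamini-Hochberg adjustment). NEAT1 was at 25.1, 26.3 and 27.7 CPM in siControl and 40.6, 60.1 and 51.7 CPM in siDGUOK, a log2 fold change of 0.95 (SE 0.16, adjusted p = 0.000314 by the same edgeR test). For both RNAs the highest value was in siDGUOK replicate 2, the lowest siDGUOK value was in replicate 1, and the groups did not overlap. In Gencode 44, TALAM1 shares 8121 of the 10434 exon bases of MALAT1 on the opposite strand, and without strand the reads of these genes cannot be told apart. Of 20 paraspeckle protein genes and 18 nuclear speckle protein genes tested, 0 were called by edgeR or by DESeq2, and their medians were -0.14 and -0.14. By edgeR, 8 of the 20 and 11 of the 18 were at an unadjusted p under 0.05, shares above the 30.5% of all genes tested. In each list 5 had an adjusted p under 0.05 (19.6% of all genes tested) with a fold change short of the threshold. Fold changes were below 0 in 15 and 11. The groups did not overlap with siDGUOK below in 7 and 7 (17.7% of all genes tested) and with siDGUOK above in 2 and 3 (18.1%). The difference from these shares was not tested. The ends of MALAT1 and of the long NEAT1 form are made by RNase P, which leaves no poly(A) tail. The molecule label names poly(A) RNA, but the protocol text does not settle how RNA was selected, so how fully these RNAs were captured is not known. Among 11 genes of RNase P and tRNase Z, POP4 was called higher. Among 26 genes of nuclear RNA surveillance RBM7 was called higher and NCBP2 lower, and among 14 Integrator genes INTS12 was called higher by edgeR but not by DESeq2 (adjusted p = 0.0694). Over all genes tested 7.14% were called higher and 6.9% lower, and the counts on these 3 lists are near or below those shares. Each of these calls was lost when some single libraries were left out. Adjusted p by edgeR then ran from 0.0655 to 0.0815 for POP4 (without siControl replicate 1 or 3 or siDGUOK replicate 3), from 0.0612 to 0.0894 for RBM7 (siControl replicate 1 or 3 or siDGUOK replicate 1) and from 0.0926 to 0.198 for INTS12 (siControl replicate 1 or 2 or siDGUOK replicate 1 or 2), and NCBP2 fell short of the fold threshold without siControl replicate 3 or siDGUOK replicate 3.

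**Figure D3:**
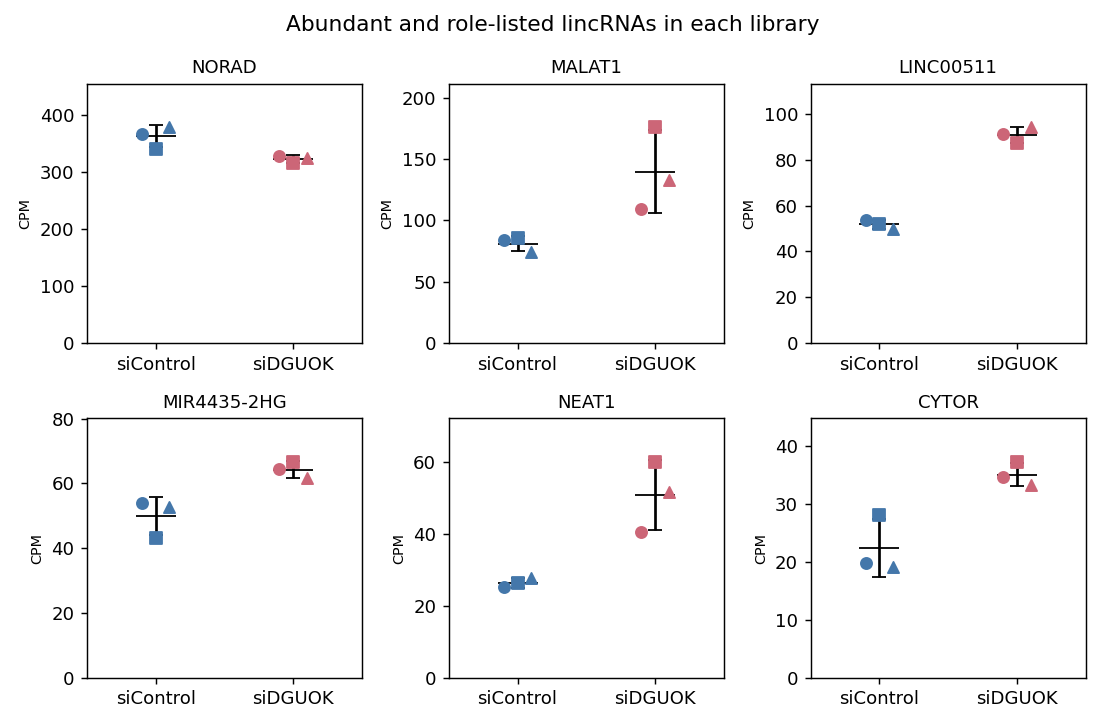
CPM of 6 abundant lincRNAs in each library, with circles, squares and triangles for replicates 1, 2 and 3, a line for the group mean and bars for the SD (n = 3). MALAT1, NEAT1, LINC00511, CYTOR and MIR4435-2HG (the last not called) are higher in all 3 siDGUOK libraries than in any siControl library. NORAD lies between 316 and 328 CPM in siDGUOK and between 342 and 380 CPM in siControl.

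Of 8 cytoplasmic and trans-acting lincRNAs tested, 1 (CYTOR) was called higher and 0 lower by edgeR and by DESeq2, 3 had an adjusted p under 0.05 by edgeR, and the median log2 fold change was 0.17. Over all genes tested, 7.14% were called higher and 6.9% lower, 19.6% had an adjusted p under 0.05, and the median was 0.01. NORAD was the most abundant of them, also per length (67.2 CPM per kb of exon in siControl and 59.8 in siDGUOK, exon lengths from Gencode 44). NORAD was at 368, 342 and 380 CPM in siControl and 328, 316 and 325 CPM in siDGUOK. The groups did not overlap, but NORAD was not called, with a log2 fold change of -0.17 (SE 0.08, adjusted p = 0.139 by edgeR's quasi-likelihood test with Benjamini-Hochberg adjustment). Its transcript holds 15 matches to TGTANATA, the letters that Pumilio proteins bind, in 5401 bases (and 1 on the other strand). Of 94 lincRNAs with a transcript, 75 held 0 in their longest transcript, but lengths differed. Per kb the matches were 2.78 in NORAD, 2.13 in AC007383.2 (2 in 941 bases) and 0.57 in FTX (7 in 12267 bases). CYTOR, which is linked to cell growth and the cytoskeleton, was at 19.9, 28.1 and 19.2 CPM in siControl and 34.5, 37.3 and 33.3 CPM in siDGUOK, a log2 fold change of 0.64 (SE 0.18, adjusted p = 0.0167 by edgeR). CYTOR has a near copy, MIR4435-2HG: 61.9% of its 31-base words also lie there, so reads of these genes could be split or dropped and both values are uncertain. CYTOR lost its call without siControl replicate 1 or 3 or siDGUOK replicate 1 or 2, with adjusted p from 0.053 to 0.0866. PVT1, next to MYC, gave 7.89, 4.73 and 5.75 CPM in siControl and 4.94, 11.7 and 2.29 CPM in siDGUOK, and the groups overlapped. The list also holds TUG1 and OIP5-AS1, typed antisense and processed transcript in the table and so not among the 95. TUG1 was at 107.7, 78.6 and 89.9 CPM in siControl and 53.3, 71.6 and 74.3 CPM in siDGUOK, a log2 fold change of -0.47 (adjusted p = 0.022 by edgeR) that passed the fold threshold without siControl replicate 2 or siDGUOK replicate 2 or 3 (adjusted p = 0.0117, 0.0245 and 0.0141 by edgeR). OIP5-AS1 was at 137, 131.5 and 138.2 CPM in siControl and 111.7, 97.9 and 100.5 CPM in siDGUOK, a log2 fold change of -0.39 (adjusted p = 0.00581 by edgeR). In both the groups did not overlap, and neither was called.

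Of 8 microRNA hosts tested, 0 were called by edgeR or by DESeq2. By edgeR, 2 were at an unadjusted p under 0.05, a share near the 30.5% over all genes tested. MIR4435-2HG was at 54.0, 43.2 and 52.8 CPM in siControl and 64.4, 66.8 and 61.5 CPM in siDGUOK (log2 fold change 0.36, adjusted p = 0.0538 by edgeR's quasi-likelihood test with Benjamini-Hochberg adjustment). MIR210HG, which carries the hypoxia-linked miR-210, had a log2 fold change of 0.54, MIR22HG of 0.17, MIR34AHG of 0.10 and MIR193BHG of 0.02. The counts are of host transcripts, and the mature microRNAs were not measured. Among 6 tested lincRNAs linked to p53 and DNA damage 0 were called by edgeR or by DESeq2 and 1, NORAD, was at an unadjusted p under 0.05 by edgeR (30.5% of all genes tested were), and TP53TG1 and LINC01021 (PURPL) had log2 fold changes of -0.22 and 0.26. Of 5 tested genes whose transcripts encode a microprotein, 0 were called by edgeR or by DESeq2 and 1 was at an unadjusted p under 0.05 by edgeR, beside the same 30.5%, and LINC00467, the only member on that list, had a log2 fold change of 0.58. Imprinted lincRNAs (2 tested) held no member, no call by edgeR or by DESeq2 and 0 at an unadjusted p under 0.05. Liver-enriched lincRNAs (3 tested) held no member and no call by edgeR, with 1 at an unadjusted p under 0.05. This was FAM99B, typed antisense, with 13, 15 and 9 raw counts in siControl and 0 in all 3 siDGUOK libraries, which DESeq2 called lower without shrinkage (adjusted p = 0.0146). On the list of stress and immune lincRNAs, both tested genes fell under the minimum mean and were called higher. Over all genes tested 7.14% were called higher, and both genes were chosen for naming after values were seen. LUCAT1 had 0 counts in all 3 siControl libraries and 31, 129 and 45 in siDGUOK, at least 19.1-fold higher when each siControl library is set to 3 counts, and at least 9.22-fold without siDGUOK replicate 2. MIR3142HG was at 1.18, 0.38 and 1.15 CPM in siControl and 5.43, 10.54 and 2.75 CPM in siDGUOK, and its call was lost without siDGUOK replicate 2 (adjusted p = 0.0769 by edgeR).

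The 3 largest fitted log2 fold changes were 4.76, 4.20 and 3.33, of which only that of LINC00973 belongs to a gene with a siControl mean above 100 raw counts (101.7). FLJ22447 had 0, 20 and 0 raw counts in siControl replicates 1, 2 and 3 and 203, 175 and 240 in siDGUOK. Its fitted log2 fold change of 4.76 (SE 0.77) is set against siControl counts that came from replicate 2 alone, and DESeq2 did not call it. LINC00326 was at 0.64, 1.72 and 2.49 CPM in siControl and 27.2, 29.6 and 28.4 CPM in siDGUOK, a log2 fold change of 4.20 (SE 0.34). LINC00973 was at 6.12, 7.46 and 4.98 CPM in siControl and 63.3, 66.0 and 59.8 CPM in siDGUOK, a log2 fold change of 3.33 (SE 0.18, adjusted p = 2.61e-10 by edgeR's quasi-likelihood test with Benjamini-Hochberg adjustment). In LINC00326 and LINC00973, siDGUOK values lay within a narrow band far above siControl. The nearest coding start to LINC00973, at 79363 bases, is that of DCBLD2, which was itself called higher, with a log2 fold change of 1.62.

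The next 12 had log2 fold changes between 1.24 and 2.19, and 7 of them met the minimum only through siDGUOK (BLACAT1, AL033397.1, AC108865.1, LINC00239, AL139246.5, LINC02313 and LINC00704). BLACAT1, named for bladder cancer and typed protein-coding in Gencode 44, was at 0.54, 3.87 and 2.88 CPM in siControl and 12.9, 15.6 and 4.63 CPM in siDGUOK, where replicate 3 lay close to the siControl range, and its call was lost without siDGUOK replicate 1 (adjusted p = 0.0529 by edgeR). AL033397.1 was at 4.13, 2.58 and 2.59 CPM in siControl and 15.5, 13.6 and 11.3 CPM in siDGUOK. LINC00704, known as MANCR, was at 4.56, 6.66 and 3.83 CPM in siControl and 18.7, 18.5 and 10.7 CPM in siDGUOK. In each the groups did not overlap. The others were AC108865.1 (log2 fold change 2.03), LINC00239 (1.97), AL139246.5 (1.77), AC007493.1 (1.74), LINC02313 (1.73), LINC00513 (1.36), AC026401.3 (1.32), LINC02413 (1.30) and AL590004.4 (1.24). LINC00511, an abundant lincRNA linked to proliferation, rose less but evenly, from 53.7, 52.0 and 49.5 CPM to 91.1, 87.5 and 94.4 CPM (log2 fold change 0.81). Other abundant lincRNAs called higher included AC099344.2 (0.99) and EBLN3P (0.51), and EBLN3P lost its call without siControl replicate 2 (adjusted p = 0.0929 by edgeR) or siDGUOK replicate 2 (0.101).

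**Figure D4:**
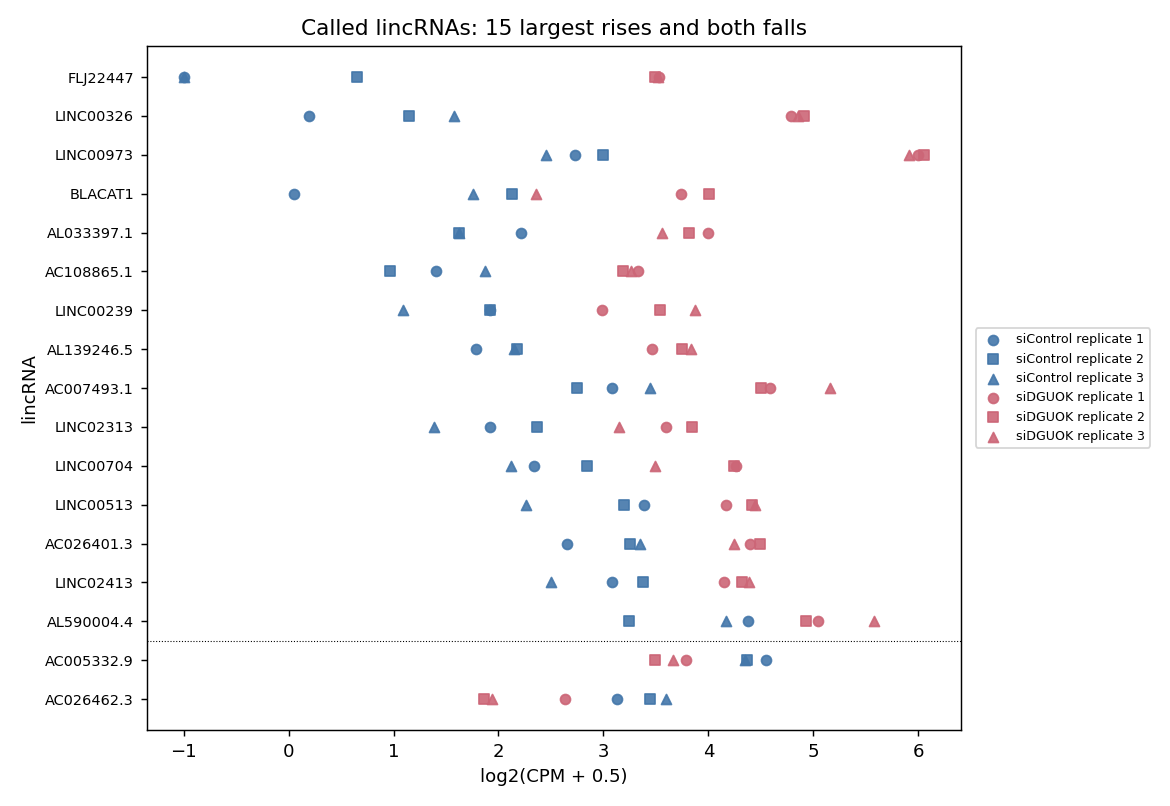
log2(CPM + 0.5) in each library for the 15 largest rises, ordered by fold change, and below the dotted line both falls; colours mark the group and shapes the replicate. The siDGUOK and siControl points of a gene do not overlap in any of the 17, and siControl replicates 1 and 3 of FLJ22447 had 0 counts, which this scale draws at its lowest value.

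The 2 lincRNAs called lower were AC026462.3 and AC005332.9. AC026462.3 met the minimum only through siControl (mean of 156 raw counts there and 76.3 in siDGUOK), so its fall is a description. AC026462.3 was at 8.26, 10.4 and 11.6 CPM in siControl and 5.70, 3.13 and 3.35 CPM in siDGUOK, a log2 fold change of -1.31 (SE 0.36, adjusted p = 0.0133 by edgeR's quasi-likelihood test with Benjamini-Hochberg adjustment). AC005332.9 was at 22.9, 20.1 and 19.8 CPM in siControl and 13.3, 10.7 and 12.2 CPM in siDGUOK, a log2 fold change of -0.80 (SE 0.21, adjusted p = 0.011 by edgeR). The groups of neither overlapped. The call of AC026462.3 was lost without siControl replicate 3 (adjusted p = 0.0823 by edgeR) and that of AC005332.9 without siControl replicate 1 (0.0602).

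Since the counting is taken to have ignored strand, overlap with other genes limits what each count stands for. In Gencode 44 (GRCh38, the build of the counts but a later gene set), 94 of the 95 lincRNAs were found, and 90 are typed lncRNA there. BLACAT1 and AC093323.1 are typed protein-coding. AC005332.7 and AC006453.2, the latter called higher, are typed transcribed unprocessed pseudogenes. Of the 94, exons of 50 overlapped an exon of another gene, 41 on the opposite strand and 24 on the same strand, and 44 overlapped none. Of those 44, 13 were called higher and 1 lower, with a median log2 fold change of 0.27, and of the 50 with overlap 14 and 1, with a median of 0.31. A coding gene started within 1 kb of 23 lincRNAs, of which 5 were called higher, and of the other 71, 22 were called higher and 2 lower.

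Several of the lincRNAs named as called share exon bases with a gene on the opposite strand. Besides MALAT1, these are, each with its partner of most shared bases, AC005332.9 with LRRC37A16P (1324 of its 2921 exon bases), LINC00326 with an unnamed lncRNA (1183 of 6151), LINC00513 with AC016831.5 (462 of 2384), LINC02413 with AC138123.2 (409 of 1251), CYTOR with LINC01943 (405 of 17782), BLACAT1 with AC098936.1 (344 of 6731), LINC00704 with LINC00705 (337 of 3143), FLJ22447 with AL355916.1 (168 of 2861), EBLN3P with AL512604.3 (100 of 10501) and LINC00511 with AC007639.1 (35 of 27664). FLJ22447 also shares 360 bases with an unnamed coding gene on the same strand. Of these partners, LRRC37A16P, AC016831.5 and AL512604.3 had 0 counts, and AC138123.2, LINC01943, AC098936.1, AL355916.1 and AC007639.1 had means of 4.83, 2, 3.5, 4.5 and 1 raw counts.

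AL033397.1 shares 529 exon bases with GCLC on the same strand, which starts 201 bases away and was not called (log2 fold change 0.15). Opposite to it lies LINC01564, called higher (2.71) but not without siDGUOK replicate 2 (adjusted p = 0.11 by edgeR). AC026401.3 lies within NDE1 on the same strand, and NDE1 was called higher (0.87). AL139246.5 overlaps HES5 on the opposite strand with no shared exon base. HES5 had 0 counts in siControl and 18, 64 and 45 in siDGUOK, at least 11.4-fold higher with each siControl library set to 3 counts and at least 7.48-fold without siDGUOK replicate 2. LINC00239 likewise lies opposite LINC02320, which had 0 counts in siControl and 27, 25 and 61 in siDGUOK, at least 9.51-fold higher. BLACAT1 shares 38 exon bases with LEMD1 on the same strand. LEMD1 had 27, 0 and 19 raw counts in siControl and 69, 63 and 109 in siDGUOK, where the groups did not overlap, and was not called (log2 fold change 1.97, SE 0.89, adjusted p = 0.14 by edgeR). The nearest coding start to LINC00511, at 452240 bases, is that of SLC39A11, called lower (-1.01), whereas FRMD8 (0.00), nearest to NEAT1, was not called. Of 24 called lincRNAs whose nearest coding gene was tested, that gene was called the same way in 5, the other way in 1 and not called in 18. Among protein-coding genes with a mean of at least 100 raw counts, 8.38% were called higher and 8.99% lower, and the difference from these shares was not tested.

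Promoter windows in RefSeq (GRCh38.p14) covered 53 of the 95 lincRNAs, 10 of them called higher and 42 not called. Each window runs from 250 bases before to 50 after a listed start. The AP-1 letters TGANTCA, searched on both strands, were in a window of 4 of the 10 and 5 of the 42, and in 7.71% of all 35116 promoters. The letters TGACGTCA were in 0 and 1 (1.85% of all), CACGTG in 1 and 4 (7.26%), TATAAA in 3 and 0 (11.5%) and TGACNNNGC in 4 and 11 (13.3%). A gene with several listed starts had several chances of a match, such as LINC00973 with 4 windows. The 5 not called are PART1, OLMALINC, MIR4435-2HG, LINC02542 and EIF3J-AS1. The windows of CYTOR and of its near copy MIR4435-2HG share a run of 241 identical bases that holds 1 of the matches, so that stretch is counted both among the called and the not called. The 4 genes below were picked for being called higher and holding the letters, which were chosen after values were seen, and are shown with TGANTCA in capitals; a match is a description only. They lie at chr3:98980805-98981104 (plus strand, LINC00973, the window at the Gencode start), chr10:4678021-4678320 (minus, LINC00704), chr7:130913214-130913513 (plus, LINC00513, whose Gencode start is 59744 bases away) and chr2:87455177-87455476 (plus, CYTOR).
LINC00973: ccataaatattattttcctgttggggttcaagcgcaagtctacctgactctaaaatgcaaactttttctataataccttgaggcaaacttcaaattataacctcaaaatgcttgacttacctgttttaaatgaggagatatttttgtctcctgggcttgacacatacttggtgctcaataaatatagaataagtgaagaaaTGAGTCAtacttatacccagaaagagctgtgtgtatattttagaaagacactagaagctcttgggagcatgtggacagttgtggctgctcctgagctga
LINC00704: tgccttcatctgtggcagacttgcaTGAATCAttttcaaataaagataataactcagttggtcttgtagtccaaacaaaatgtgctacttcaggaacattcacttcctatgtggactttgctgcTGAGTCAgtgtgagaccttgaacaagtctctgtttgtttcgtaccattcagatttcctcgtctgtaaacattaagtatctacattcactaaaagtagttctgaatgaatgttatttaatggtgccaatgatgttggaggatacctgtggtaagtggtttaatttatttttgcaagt
LINC00513: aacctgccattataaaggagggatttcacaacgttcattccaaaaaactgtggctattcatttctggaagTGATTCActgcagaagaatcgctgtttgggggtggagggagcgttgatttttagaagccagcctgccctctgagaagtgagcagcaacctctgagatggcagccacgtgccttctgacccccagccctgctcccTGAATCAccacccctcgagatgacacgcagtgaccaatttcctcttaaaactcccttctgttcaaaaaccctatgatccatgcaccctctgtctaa
CYTOR: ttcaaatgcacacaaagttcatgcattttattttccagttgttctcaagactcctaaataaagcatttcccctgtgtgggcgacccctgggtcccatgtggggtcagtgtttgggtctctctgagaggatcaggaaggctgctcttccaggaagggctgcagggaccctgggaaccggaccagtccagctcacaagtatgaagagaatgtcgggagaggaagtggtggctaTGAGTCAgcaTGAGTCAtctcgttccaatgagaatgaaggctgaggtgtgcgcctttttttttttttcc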

How the data were processed

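RNA of HepG2 cells was sequenced in 3 siControl and 3 siDGUOK libraries. The deposited values are whole-number gene counts that the authors made with STAR 2.6.1 and featureCounts 1.6.5 per the submitters' processing notes, on GRCh38 with Gencode 27. Default featureCounts ignores strand and drops reads that map to several places or overlap several genes. The library kit, its strandedness and RNA selection are not certain from the protocol text. The treatment field reads siControl for all 6 samples, so groups came from the titles.

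Genes passing filterByExpr (14476) were tested with edgeR 4.0.16 (R 4.3.3): TMM factors, library sizes over the filtered genes, robust quasi-likelihood F test, Benjamini-Hochberg adjustment over all genes. Each SE was derived from the fold change and its F statistic. The scripts were tested on simulated data. DESeq2 1.42.0 was an alternative. Library sizes over the whole table and TMM before filtering were added after seeing the data, when the count of calls was compared with an earlier analysis, and the original setting was kept. The members and lists were chosen with earlier results of these data known. Named genes were DGUOK, the 10 most abundant members, the 15 largest called rises, called falls, members on role lists, neighbours of the named called members, threshold neighbours, called genes of the protein lists and markers. LUCAT1, MIR3142HG, FAM99B, TUG1, OIP5-AS1, MIR222HG, MIR600HG, the genes listed by motif and the motifs were chosen after values were seen. MIR222HG and MIR600HG are not among the named genes counted under alternatives. Of the genes this rule names, 3 are not reported here.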

Additional observations from a re-analysis of the deposited data

How the results depend on the processing

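The 28 and 2 called lincRNAs were the same genes under RLE and upper-quartile scaling, with no count filter and under the 3 library size and scaling orders added after seeing the data, which gave 2041, 2051 and 2050 calls over all genes in place of 2032. DESeq2 called 25 higher and 2 lower, or 24 and 2 with shrunken fold changes, where the median log2 fold change was 0.16. Shrinkage lowers fold changes by construction. Of the 30 calls, 20 were made under every tool, scaling, block and left-out library.

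Leaving out each library in turn gave 1 to 2 lincRNAs called lower (1 without siControl replicate 1 or 3), 23 to 27 called higher, and a median of 0.26 to 0.35. Above a log2 fold change of 1 in size, 18 were called higher and 1 lower, and 823 genes in all. A mean of at least 50 raw counts took 156 lincRNAs with 34 higher, 2 lower and a median of 0.29. A mean of at least 200 raw counts left 44 lincRNAs with 17 higher, 1 lower and a median of 0.39, and at least 100 in each group gave 18, 1 and 0.21. The 44 with no exon overlap gave 13 and 1. These last 3 sets hold fewer genes.

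Replicate numbers did not pair the samples (correlations 0.02, 0.02 and -0.0023). With the replicate block, 28 were called higher and 2 lower, with a median of 0.28 and 2078 calls over all genes. Of 1395 values of named genes under alternatives, 33 lost a call, 11 gained one, 0 changed sign after a call and 33 changed sign without a call. Depth limits members near 100 counts, where single libraries hold few reads.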
